A study of Sus scrofa with 15 samples.

Results

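The comparison set the testis of piglets fed formula with added 17-beta-estradiol (M + E2) against the testis of piglets on 3 other formulas, namely cow's milk formula alone (Milk), soy formula (Soy) and cow's milk formula with added genistein (M + G). Libraries were taken by the diet in the column names of the count table, which gave 3 M + E2 libraries and 9 others (3 each of Milk, Soy and M + G), 12 of the 15 libraries of the series. The sow-milk piglets were not used. All were male piglets of Dutch Landrace Duroc sows (White-Dutch Landrace piglets in the study's abstract), from many litters. They received their diet from day 2 to day 21 of life. The sample titles number the libraries of a diet as replicates, and no source says whether each library came from 1 piglet. E2 was given at 2 mg/kg/d and genistein at 84 mg per litre of diet, both in the same commercial cow's milk formula, so M + E2 differed from Milk by the E2 alone, from M + G by E2 in place of genistein, and from Soy by the formula as well. The M + E2 group served in the study as the positive control for an estrogenic effect. The level of a gene in a group is given in CPM, the read count scaled to the size of its library, and the change as the log2 of M + E2 over the mean of the 3 other formulas, with each formula given equal weight.

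The neonatal pig testis is a steroid-producing organ. Its Leydig cells convert cholesterol to androgens and, in the pig, to large amounts of estrogen through aromatase (CYP19A1), under the drive of pituitary luteinizing hormone. Sertoli cells line the seminiferous cords, secrete anti-Müllerian hormone (AMH) and inhibins, and surround the early germ cells called gonocytes. Estrogen acts through the nuclear receptors ESR1 and ESR2, in the testis itself and in the hypothalamus and pituitary, where it lowers gonadotropin release. The question of the comparison is which testis genes stood at another level in E2-fed piglets than in piglets on any of the other formulas.

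The libraries held between 6097552 and 9488579 reads on genes, and 15164 genes passed the count filter. The defining genes AMH (354 to 1281 CPM) and INSL3 (2989.8 to 6350 CPM) were present in all 12 libraries. The M + E2 libraries were alike, with correlations across genes of 0.978 to 0.980, against 0.923 to 0.981 between M + E2 and the others and 0.931 to 0.984 among the other 9. Of the other 9, Milk 3 and M + G 3 were nearest to M + E2, with mean correlations of 0.977 and 0.980. The M + E2 libraries had mean correlations of 0.979 to 0.980 with each other, so they did not stand apart from these libraries. Libraries Milk 2, Soy 3 and M + G 2 stood apart by their collagen reads, since COL1A1 took 1.56 to 1.94% of their reads and 0.313 to 0.681% in the other 9 libraries, M + E2 included. List medians that moved by over 1.5 times without these 3 are given both ways. Mitochondrially encoded genes took 4.36 to 5.41% of reads in M + E2 and 4.49 to 9.65% in the others.

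Of the 15164 genes, 3 passed the test in M + E2 against the 3 other formulas, at an adjusted p of 0.05 or less and at least a 2-fold change (0.0198% of the genes tested). LINGO1 and TVP23A rose (2 genes, 0.0132%) and HPD fell (1 gene, 0.00659%). For each of them the 3 M + E2 libraries lay entirely outside the range of the other 9. The fourth gene had an adjusted p of 0.129, a value shared by 100 genes. At an unadjusted p below 0.05 there were 1000 higher genes (6.59%) and 1286 lower genes (8.48%), and the M + E2 libraries lay all above the other 9 for 384 genes (2.53%) and all below for 506 (3.34%), together 5.87%. The fitted level was higher in M + E2 for 47.1% of all genes. The median log2 fold change of all genes was −0.02. The number of calls hung on single libraries and on the test. Without M + E2 1 or without M + E2 2 it was 0 (1278 and 1556 genes at an unadjusted p below 0.05), without Milk 2 it was 7, without the Soy library that carries no number 5, without Milk 3 135, with DESeq2 128 and with edgeR's exact test, the other 9 taken as 1 group, 137. The shares of all genes at an unadjusted p below 0.05 moved with single libraries too. They were lowest without M + E2 1 (3.71% higher, 4.56% lower) and highest without Milk 3 (13.2% each). List counts given below for a library left out are to be read beside these shares.

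LINGO1 encodes a transmembrane protein with leucine-rich repeats, known as a partner of the Nogo receptor in neurons. The gene (ENSSSCG00000001872) is protein-coding and lies on chromosome 7 at 57684591 to 57890121 in Sscrofa11.1. In M + E2 it stood at 49.0, 43.7 and 36.3 CPM. The Milk libraries had 14.1, 7.05 and 12.4 CPM, the Soy libraries 14.6, 12.2 and 13.1 CPM, and the M + G libraries 15.1, 16.2 and 21.1 CPM. All M + E2 libraries were above all others, and M + G 3 was the highest of the 9. The rise was 3.12-fold (log2 1.64, SE 0.18, adjusted p = 0.0117 in edgeR's quasi-likelihood test). Against the single formulas the log2 difference was 1.94 for Milk, 1.69 for Soy and 1.30 for M + G, and the 3 formulas among themselves gave an unadjusted p of 0.0564 in that test.

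TVP23A (ENSSSCG00000027101, chromosome 3 at 32275481 to 32318598) encodes a membrane protein of the trans-Golgi network. Its M + E2 libraries had 24.4, 13.8 and 13.8 CPM. The other 9 lay between 3.78 and 6.28 CPM with a median of 5.26. M + E2 1 was the highest, and the remaining M + E2 libraries also lay above every other library. The rise was 3.46-fold (log2 1.79, SE 0.21, adjusted p = 0.0137, edgeR quasi-likelihood test), and against Milk, Soy and M + G the log2 differences were 1.89, 1.76 and 1.73. The log2 fold change of TVP23A with the replicate number as a block, which leaves out the Soy library that carries no number, was 1.77 and did not pass (adjusted p = 0.0801).

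HPD (ENSSSCG00000009805, chromosome 14 at 30845608 to 30857658) encodes 4-hydroxyphenylpyruvate dioxygenase, an enzyme of tyrosine breakdown. It stood at 60.4, 41.1 and 46.5 CPM in M + E2. The lowest of the other 9 libraries had 140.3 CPM, the median was 165 and the highest 256. The ranges did not meet, and both the highest level (Milk 1) and the lowest (Milk 2) among the 9 came from Milk. HPD fell to 0.271 of its level in the other formulas (log2 −1.88, SE 0.25, adjusted p = 0.0264, edgeR quasi-likelihood test), and the difference was −1.89 against Milk, −1.80 against Soy and −1.95 against M + G. Of the 3 genes, LINGO1 was called without Milk 2, Soy 3 and M + G 2, as was HPD, and TVP23A was not. The adjusted p reached at most 0.124 for LINGO1, 0.124 for TVP23A and 0.331 for HPD over the alternatives tried, with no reversal of direction.

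**Figure D1:**
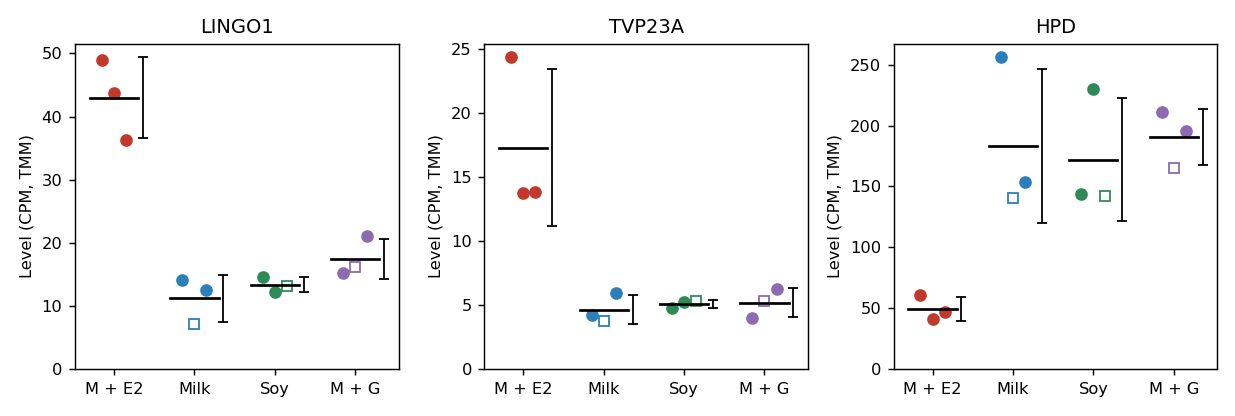
Level in CPM of the 3 genes that passed the test, by diet, with 1 point per library, the group mean as a line and the SD as a bar (n = 3 each). Open squares are Milk 2, Soy 3 and M + G 2. The M + E2 points of LINGO1 (36.3 to 49.0 CPM) and TVP23A (13.8 to 24.4 CPM) lie above all others, and those of HPD (41.1 to 60.4 CPM) lie below all others.

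Against each formula alone, in the same edgeR quasi-likelihood fit, 0 genes passed. These comparisons share the M + E2 libraries. The study, with edgeR's exact test, reported differentially expressed genes for M + E2 against Milk. That test was not run here against single formulas. The number of genes at an unadjusted p below 0.05 was 2373 against Milk (15.6%), 1761 against Soy (11.6%) and 906 against M + G (5.97%), and DESeq2 called 86, 119 and 14 genes. Among Milk, Soy and M + G, which were averaged for the main comparison, 0 genes passed, with 322 at an unadjusted p below 0.05 (2.12%) and 18 called by DESeq2. Some of these counts hung on Milk 3 and on the Soy library without a number. Without Milk 3, 1007 genes passed against Milk and 1841 genes (11.8%) had an unadjusted p below 0.05 among Milk, Soy and M + G, and without that Soy library the latter count was 687.

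**Figure D2:**
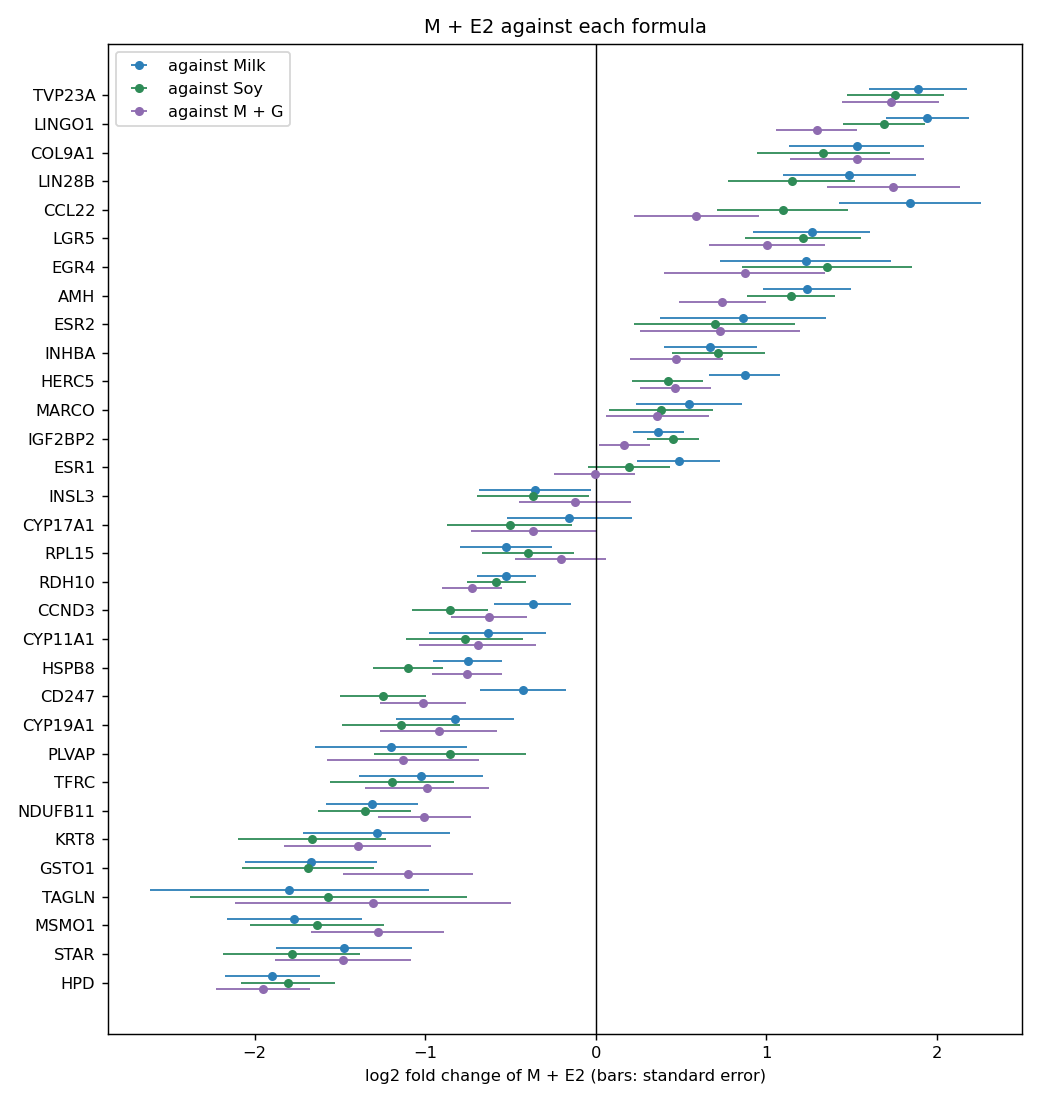
Log2 fold change of M + E2 against Milk, Soy and M + G for the 32 named genes that were tested, with the standard error as a bar. The 3 points of HPD lie between −1.95 and −1.80, those of TVP23A between 1.73 and 1.89, and for ESR1 they lie between −0.01 and 0.49.

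Among steroid receptors and genes known to respond to estrogen, 23 members were tested and 0 passed. At an unadjusted p below 0.05, 1 was higher and 1 lower (6.59% and 8.48% of all genes), and the median log2 fold change was −0.03, or 0.01 without Milk 2, Soy 3 and M + G 2. Without M + E2 2 it was −0.15. ESR1, the main estrogen receptor, had 16.4, 15.2 and 21.4 CPM in M + E2 against 8.43 to 19.02 (median 16.4) in the others (log2 0.22, SE 0.19, adjusted p = 0.573). ESR2, the second receptor, was near the detection limit with 6, 9 and 15 reads in M + E2 and 3 to 10 reads elsewhere (log2 0.76, SE 0.37, adjusted p = 0.351). For both receptors the M + E2 libraries lay within or across the range of the others. The progesterone receptor PGR (log2 −0.22, SE 0.33) and GREB1 (0.10, SE 0.34), textbook estrogen targets in other tissues, had small differences with unadjusted p of 0.526 and 0.767. The member with the smallest p was HSPB8, a small heat shock protein, with 61.7, 54.0 and 38.5 CPM against 68.2 to 118 (median 93.8), all M + E2 libraries below (log2 −0.87, SE 0.17, adjusted p = 0.129). The other was RARA, a retinoic acid receptor, with a mean of 118 CPM against 89.9 (log2 0.40, SE 0.13, adjusted p = 0.210).

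Genes of steroid synthesis had lower fitted levels in M + E2 for 15 of 19 tested members, with a median log2 fold change of −0.45, but 0 passed. At an unadjusted p below 0.05 there were 6 lower members (STAR, CYP19A1, FDX1, HSD17B12, HSD17B4 and CYP11A1) and 0 higher ones, beside 8.48% and 6.59% of all genes, and 4 to 8 were lower when single libraries were left out. STAR carries cholesterol into the mitochondria, the rate-limiting step. It stood at 1352, 1711 and 791 CPM in M + E2. The others lay between 1809.9 (Milk 2) and 5557 CPM with a median of 3729. Milk 2 was the library nearest to M + E2, and the groups did not overlap. The log2 difference was −1.58 (SE 0.35, adjusted p = 0.129, unadjusted p = 0.000697), with −1.47, −1.78 and −1.48 against Milk, Soy and M + G. DESeq2 and edgeR's exact test called STAR, as did the quasi-likelihood test without Milk 3.

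CYP19A1, aromatase, had 2247, 1826 and 1785 CPM in M + E2. The others ranged from 1823 (Milk 2) to 4766 CPM with a median of 3790.5, so that Milk 2 alone lay among the M + E2 libraries (log2 −0.96, SE 0.30, adjusted p = 0.189). The pig carries several aromatase copies in tandem, and since the table has 1 entry, reads of the copies cannot be told apart. CYP11A1, which cuts the cholesterol side chain, had 1637, 1730.3 and 1182 CPM against 1162.5 to 3118 (median 2548; log2 −0.70, SE 0.29, adjusted p = 0.295). CYP17A1, the enzyme that opens the way to androgens, had 7060.2, 6743 and 6024 CPM against 3634 to 11456 (median 8314), a log2 difference of −0.34 (SE 0.30, adjusted p = 0.584). Its groups overlapped, and Milk 2 was again the lowest library.

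The 9 Leydig cell markers tested, several of them also steroidogenic genes, had a median of −0.48, with 2 lower and 0 higher at an unadjusted p below 0.05 (8.48% and 6.59% of all genes). INSL3, the Leydig hormone of testis descent, had 4027, 2989.8 and 4967 CPM against 3064 to 6350 CPM (median 5131; log2 −0.28, SE 0.27, adjusted p = 0.616), with overlap. HSD17B3, which makes testosterone, had a mean of 285 ± 65.5 CPM (SD, n = 3) against 238 ± 68.3 (SD, n = 9, the 3 diets mixed), a log2 difference of 0.26 (SE 0.26, unadjusted p = 0.335). The summed level of the Leydig markers was 14229 to 16137 CPM in M + E2 and 11483 to 28854 in the others. In whole testis, fewer cells of a type and less RNA per cell cannot be told apart. The study counted cells in testis sections and found no significant difference in Leydig cell number among the diets. It reported more Sertoli and germ cells in M + E2 than in Milk. The part of cell number in the levels given here was not tested.

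**Figure D3:**
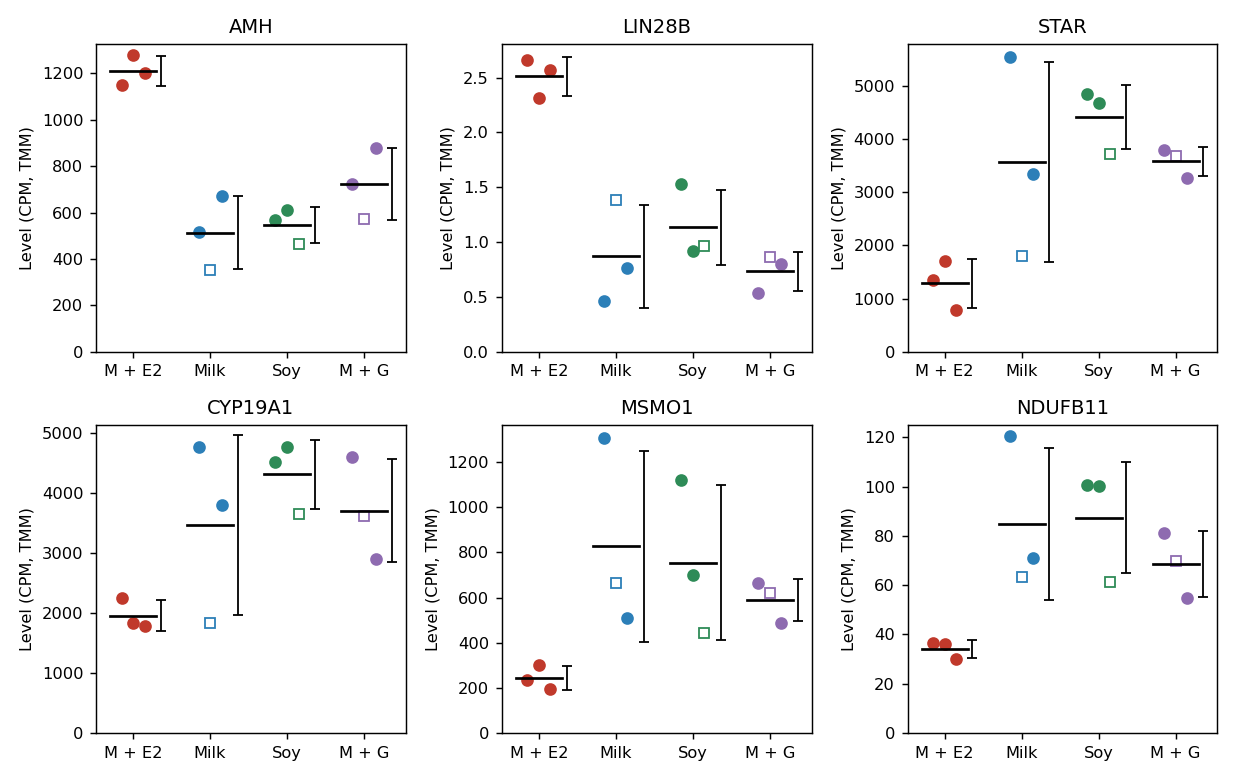
Level in CPM of AMH, LIN28B, STAR, CYP19A1, MSMO1 and NDUFB11 by diet, with 1 point per library, the mean as a line and the SD as a bar (n = 3 each). Open squares are Milk 2, Soy 3 and M + G 2. For CYP19A1 the Milk 2 point lies within the M + E2 points (1785 to 2247 CPM), and for the other 5 genes the M + E2 points do not meet those of the other diets.

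Sterol synthesis and uptake genes, which make the cholesterol that steroid synthesis starts from, were lower in M + E2 for 18 of 33 tested members at an unadjusted p below 0.05 and higher for 1, beside 8.48% and 6.59% of all genes, and 0 passed. Their median log2 fold change was −0.66, with −0.57 against Milk, −0.67 against Soy and −0.76 against M + G. For 9 members all M + E2 libraries lay below the other 9, as for 3.34% of all genes. MSMO1, a methyl-sterol oxidase, stood at 237, 299.7 and 193 CPM. The others ranged from 443 to 1308 CPM with a median of 664. The ranges did not meet, and Milk 1 and the Soy library without a number were the highest (log2 −1.56, SE 0.34, adjusted p = 0.129). HMGCS1, an early enzyme of the path, had 514 ± 91.0 CPM (SD, n = 3) against a mean of 1089.96 CPM (log2 −1.08, SE 0.28), IDI1 had a difference of −1.27 (SE 0.34), FDPS of −1.17 (SE 0.28), CYP51A1 of −1.02 (SE 0.27), FDFT1 of −0.91 (SE 0.20) and SQLE of −0.78 (SE 0.19), with adjusted p between 0.129 and 0.156. The higher member was ABCA1, which exports cholesterol from cells (56.9 ± 4.28 against 36.7 ± 8.49 CPM, log2 0.64, SE 0.19, adjusted p = 0.185). The summed level was 5018 to 7511 CPM in M + E2 and 5558 to 12288 in the others, of which Milk 2 alone lay within the M + E2 range.

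Sertoli cell markers went the other way. Of 20 tested, 16 had a higher fitted level in M + E2 (47.1% of all genes), 6 were higher and 1 lower at an unadjusted p below 0.05 (6.59% and 8.48% of all genes), with 4 to 9 higher when single libraries were left out, 0 passed, and the median was 0.37 (0.23 without Milk 2, Soy 3 and M + G 2). The 4 came without M + E2 3 and the 9 without Milk 3, where 4.7% and 13.2% of all genes were higher. AMH, which makes the Müllerian duct regress, stood at 1150.4, 1281 and 1200.4 CPM in M + E2. The Milk libraries had 516, 354 and 671 CPM, the Soy libraries 567, 612 and 463 CPM, and the M + G libraries 721, 571 and 878 CPM. The M + E2 libraries were all above the other 9, of which M + G 3 was the highest. The log2 difference was 1.04 (SE 0.20, adjusted p = 0.129, unadjusted p = 0.000183), with 1.24, 1.15 and 0.74 against Milk, Soy and M + G, and DESeq2 and edgeR's exact test called AMH. WT1 (log2 0.51, SE 0.14) and DMRT1 (0.54, SE 0.18), regulators of the testis somatic lineage, and FSHR (0.78, SE 0.26), the receptor of follicle-stimulating hormone, also had all M + E2 libraries above the others. SOX9, the factor that sets the Sertoli fate, had 137 ± 13.4 CPM against 82.6 ± 28.9 (log2 0.75, SE 0.26), and CLU had 0.62 (SE 0.25), both with overlap. The adjusted p of these 5 lay between 0.159 and 0.282. KRT18, the lower member, had a mean of 0.685 CPM against 4.74 with an SD of 6.14 among the 9. CLDN11, a tight junction gene of Sertoli cells, had 202 ± 31.3 against 199 ± 87.6 CPM (log2 0.05, SE 0.33). The summed level was 8850.3, 9017 and 9838 CPM in M + E2 and 4887 to 9957 (median 6454) elsewhere, and M + G 3 was the one library of the 9 inside or above the M + E2 range.

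Germ cell markers had a median of 0.53 over 16 tested members (0.51 without Milk 2, Soy 3 and M + G 2), with 14 higher by the fit, 6 higher and 1 lower at an unadjusted p below 0.05 beside 6.59% and 8.48% of all genes, and 0 that passed. Between 4 (without M + E2 3) and 8 (without Milk 3) were higher when single libraries were left out. In these fits 4.7% and 13.2% of all genes were higher. LIN28B, which blocks the let-7 miRNAs and marks immature germ cells, was a gene of few reads, with 18, 18 and 24 in M + E2 and 3 to 11 in the other libraries. As levels these were 2.66, 2.31 and 2.57 CPM against 0.464 to 1.53 (median 0.864). All M + E2 libraries lay above (log2 1.46, SE 0.29, adjusted p = 0.129), with 1.49, 1.15 and 1.74 against Milk, Soy and M + G. PIWIL2 (log2 0.83, SE 0.18) and TDRD1 (0.61, SE 0.21) belong to the piRNA pathway that silences transposons in germ cells, DND1 (0.89, SE 0.26) protects primordial germ cells, and KIT (0.76, SE 0.21) and RET (0.58, SE 0.23) are receptors of germ cells. KIT is also made by Leydig cells, and its difference was 0.35 against Soy beside 1.07 against Milk and 0.85 against M + G. DDX4, a defining germ cell gene, had 5.79 ± 1.22 against 4.92 ± 1.68 CPM (log2 0.25, SE 0.30, unadjusted p = 0.425), UCHL1, a gonocyte marker, had −0.30 (SE 0.27), and the lower member was ID4, of the spermatogonial stem cell (7.10 ± 1.17 against 25.4 ± 24.7 CPM, log2 −1.76, SE 0.78). The summed level was 369.7, 413 and 423 CPM in M + E2 and 204 to 439 (median 267) in the others, where Soy 3 was the highest.

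**Figure D4:**
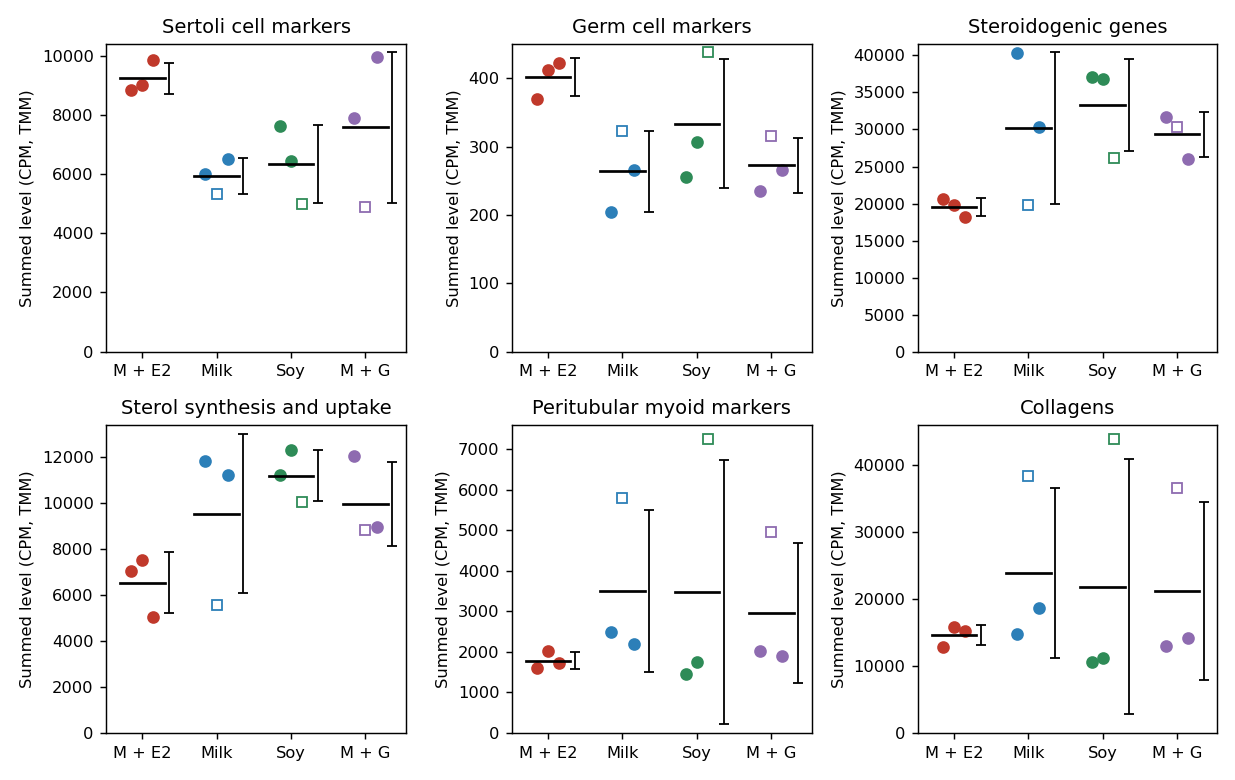
Summed level in CPM of the members of 6 gene lists by diet, with 1 point per library, the mean as a line and the SD as a bar (n = 3 each). Open squares are Milk 2, Soy 3 and M + G 2, which have 36606 to 43909 CPM of collagens against 10534 to 18595 in the other 9 libraries.

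Genes that set gonadal fate had 6 of 18 tested members higher and 0 lower at an unadjusted p below 0.05, beside 6.59% and 8.48% of all genes (0 passed, median 0.24), 2 of them also Sertoli markers. The median was 0.12 without M + E2 1, 0.11 without M + E2 2, 0.13 without Milk 1, 0.13 without M + G 1 and 0.37 without Milk 2, Soy 3 and M + G 2, and 4 to 7 members were higher when single libraries were left out. The 4 came without M + E2 1 and the 7 without Milk 3, where 3.71% and 13.2% of all genes were higher. LGR5, a receptor of R-spondins in the WNT pathway, had 34.1, 27.4 and 27.1 CPM in M + E2 against 6.04 to 20.2 (median 13.1), all above (log2 1.16, SE 0.26, adjusted p = 0.129). The other members, GATA6 (0.56, SE 0.16), ZNRF3 (0.44, SE 0.17), a WNT inhibitor, and CBX2 (0.42, SE 0.17), of the Polycomb complex, had all M + E2 libraries above as well. FOXL2, the ovarian counterpart of SOX9, did not pass the count filter. It had 3, 3 and 7 reads in M + E2, 1, 0 and 1 in Milk, 3, 0 and 0 in Soy and 0 in each of the M + G libraries, so that the Soy library without a number equalled the lower M + E2 libraries. With no filter its adjusted p was 0.166. RSPO1, an ovary-promoting ligand, was near 1 CPM (0.987 ± 0.324 against 1.57 ± 1.28, log2 −0.56, SE 0.62).

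Inhibins, activins and their partners had 2 of 12 members higher and 0 lower at an unadjusted p below 0.05, beside 6.59% and 8.48% of all genes (0 passed, median 0.27). Without Milk 3, 5 members were higher, where the share of all genes was 13.2%. INHBA, the subunit of activin A, had 187, 161 and 189.8 CPM against 75.4 to 163 (median 111), with overlap by M + G 3 (log2 0.62, SE 0.21, adjusted p = 0.226). INHA, shared by all inhibins, had 0.33 (SE 0.25, unadjusted p = 0.202). In the insulin-like growth factor axis 3 of 18 were higher and 0 lower, beside the same shares of all genes (0 passed, median 0.11). The 3 became 0 without M + E2 1 or M + E2 3, 1 without Milk 1, Soy 2 or M + G 2 and 5 without Milk 3, and the median was 0.05 without Milk 1, 0.33 without Milk 3 and 0.35 without Milk 2, Soy 3 and M + G 2. IGF2BP2, which binds growth factor transcripts, had 35.1, 33.8 and 35.1 CPM against 22.4 to 33.4 (log2 0.33, SE 0.12, adjusted p = 0.244), and IGF1 itself had 11.15 ± 2.56 against 23.6 ± 18.4 CPM (log2 −1.05, SE 0.59, unadjusted p = 0.0993). Of 26 retinoic acid and hedgehog genes, 7 were higher and 2 lower, again beside 6.59% and 8.48% of all genes, with 0 that passed (median 0.17, or 0.27 without Milk 3 and 0.34 without Milk 2, Soy 3 and M + G 2). The 7 became 4 without M + E2 1 or M + E2 2, where 3.71% and 4.29% of all genes were higher. CYP26B1, which degrades retinoic acid in the fetal testis, had 63.6 ± 4.88 against 37.9 ± 12.6 CPM (0.76, SE 0.25), and PTCH1, the hedgehog receptor and target, 132 ± 8.01 against 82.3 ± 25.4 CPM (0.69, SE 0.25), both with all M + E2 libraries above. RDH10, which makes retinaldehyde for retinoic acid, had 15.5, 14.1 and 19.3 CPM against 21.4 to 31.0, all below (log2 −0.61, SE 0.15, adjusted p = 0.140). The ligand DHH had 0.16 (SE 0.21).

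Nuclear-encoded genes of oxidative phosphorylation had lower fitted levels in M + E2 for all 59 tested members. At an unadjusted p below 0.05, 33 were lower and 0 higher (8.48% of all genes were lower), for 14 all M + E2 libraries lay below the other 9 (3.34% of all genes), and 0 passed. The study had named this pathway for M + E2 against sow milk, with ribosome, steroid biosynthesis and xenobiotic metabolism. The M + E2 libraries are the same, so the counts of these lists are no independent support. The median was −0.57, with −0.78 against Milk, −0.57 against Soy and −0.39 against M + G. NDUFB11, a subunit of complex I, had 36.5, 36.1 and 30.0 CPM in M + E2. The others had 54.7 to 120.4 CPM with a median of 70.8. The groups did not overlap, and Milk 1 and both Soy libraries other than Soy 3 were the highest (log2 −1.22, SE 0.24, adjusted p = 0.129). Further examples were COX6A1 of complex IV (−0.96, SE 0.30), UQCRQ of complex III (−0.95, SE 0.32), ATP5MC3 of the ATP synthase (−0.94, SE 0.28), SDHC of complex II (−0.87, SE 0.28) and NDUFA6 of complex I (−0.78, SE 0.16), all with every M + E2 library below. NDUFA6 also had an unadjusted p of 0.0117 among the other 3 formulas, with −0.87, −1.08 and −0.41 against Milk, Soy and M + G. The count of lower members ranged from 15 (without M + E2 1) to 44 (without Milk 3) when single libraries were left out. In these fits 25.4% and 74.6% of the members were lower, beside 4.56% and 13.2% of all genes. The summed level was 4997, 5697 and 5683 CPM in M + E2 and ranged from 5557 (Soy 3) to 11877 CPM in the others. It was 8049 to 11877 CPM in Milk 1, Milk 2, the Soy library without a number and M + G 2. The remaining reference libraries, with 5557 to 7673 CPM, lay nearer to M + E2.

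Cytoplasmic ribosomal protein genes also had lower fitted levels, in 51 of 52 members, but with 0 at an unadjusted p below 0.05 and a median of −0.28. That median was −0.12 without the Soy library that carries no number, −0.08 with the replicate block, −0.18 without M + E2 1 and −0.48 without M + E2 3, and 4 members were lower without Milk 3. The median was −0.57 against Milk, −0.27 against Soy and −0.05 against M + G. RPL15, of the large subunit, had 453, 425 and 619 CPM against 485 to 841 (log2 −0.38, SE 0.22, adjusted p = 0.425). The summed level split the libraries across diets, with 46304 to 67139.6 CPM in Milk 1, Milk 2, the Soy library without a number and M + G 2, and 27243 to 43415 in the other 8, M + E2 included. The part of this split in the results for oxidative phosphorylation was not tested. Ribosomal protein genes have many processed copies that short reads may not separate.

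Xenobiotic metabolism genes had 7 of 24 lower and 0 higher at an unadjusted p below 0.05 (8.48% and 6.59% of all genes), 0 that passed and a median of −0.39. The 7 became 4 without M + E2 1 or M + E2 3, and the median was −0.25 without the Soy library that carries no number. Over all genes 4.56% were lower without M + E2 1 and 5.58% without M + E2 3. GSTO1, a glutathione transferase, had 108, 122 and 101 CPM in M + E2 against 182 to 569 (median 274), all below (log2 −1.48, SE 0.34, adjusted p = 0.129), with −1.67, −1.69 and −1.10 against Milk, Soy and M + G.

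**Figure D5:**
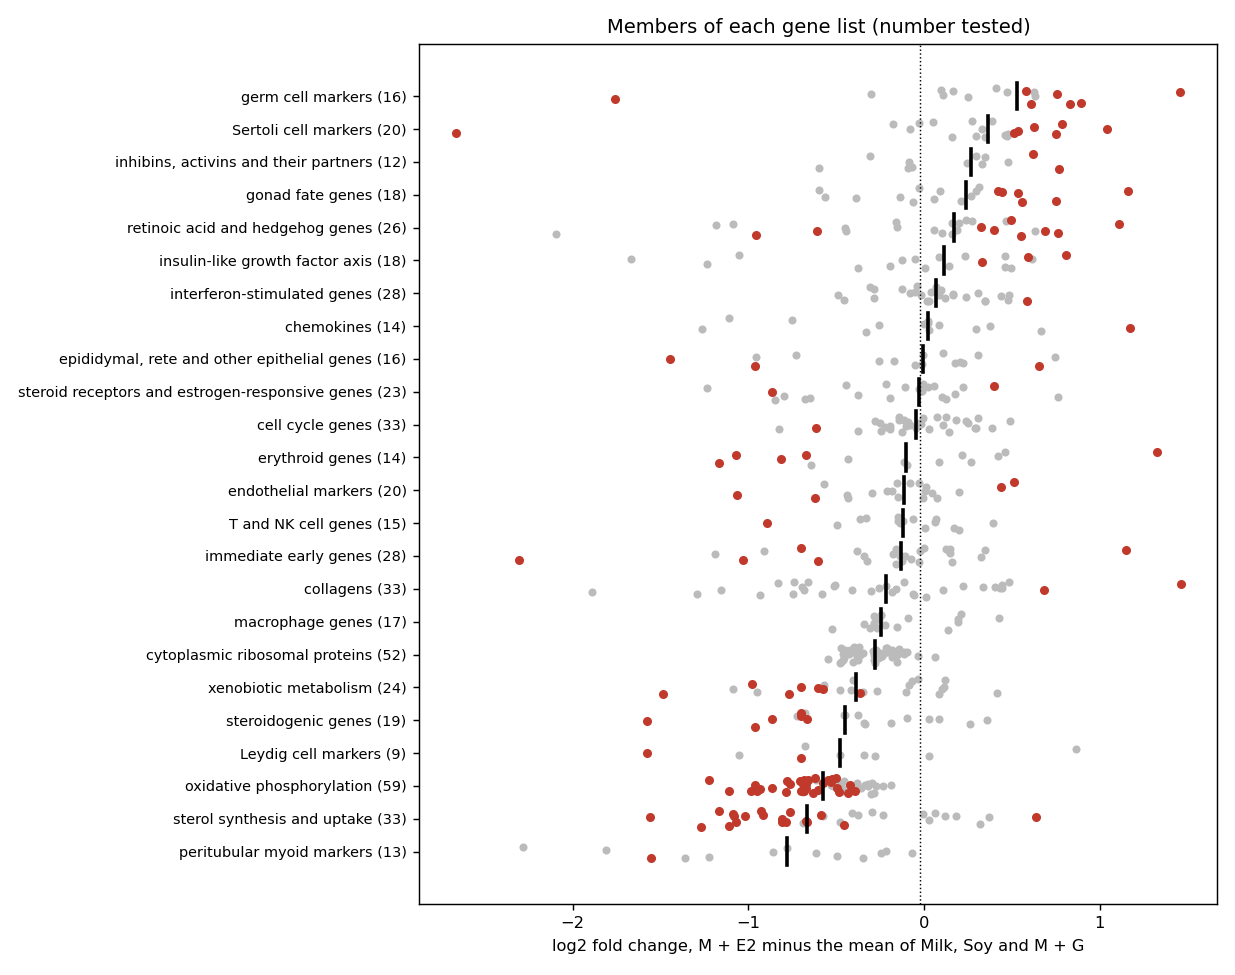
Log2 fold change of M + E2 against the mean of the other 3 formulas for the tested members of 24 gene lists. Red points have an unadjusted p below 0.05, grey points do not, the black bar is the list's median and the dotted line the median of all genes (−0.02). Medians run from −0.78 for peritubular myoid markers to 0.53 for germ cell markers, and all 59 points of oxidative phosphorylation lie below 0.

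Stromal genes stood highest in the 3 collagen-rich libraries. At an unadjusted p below 0.05, 6.59% of all genes were higher and 8.48% lower. Of 13 peritubular myoid markers, the contractile genes of the cells around the cords, 0 were higher, 1 was lower and 0 passed. Their median was the lowest of all lists (−0.78). Without Milk 2, Soy 3 and M + G 2 that median was −0.08, and without Soy 3 alone −0.38. The count of lower members was 6 without the Soy library that carries no number and 5 without Soy 2. TAGLN, a smooth muscle actin-binding protein, had 125, 179 and 177 CPM in M + E2. It had 1034, 1101 and 822 CPM in those 3 libraries, and 159 to 386 CPM in the other 6 (log2 −1.56, SE 0.72, adjusted p = 0.331, and log2 −0.41 without the 3). ACTA2, smooth muscle actin, had −1.36 (SE 0.68) and CNN1, calponin, −1.81 (SE 0.90), with unadjusted p of 0.0683 and 0.0667. Collagens had a median of −0.21 over 33 members, and 0.17 without the 3 libraries. At an unadjusted p below 0.05, 2 were higher and 0 lower, beside the same shares of all genes. The higher members were 5 without the 3 libraries or without Milk 3, and 4 without Soy 3. COL1A1 had a log2 difference of −0.93 (SE 0.64), and COL9A1, a minor collagen of cartilage, went the other way with 6.35, 4.37 and 6.74 CPM against 0.972 to 3.09, all above (log2 1.46, SE 0.30, adjusted p = 0.129).

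Among markers of blood vessels and blood cells 0 members passed. At an unadjusted p below 0.05, 6.59% of all genes were higher and 8.48% lower. Of 20 endothelial markers 2 were higher and 2 lower at an unadjusted p below 0.05 (median −0.11, and 0.08 without the 3 libraries), and PLVAP, of the vessel wall, had 39.4, 51.3 and 38.7 CPM against 49.3 to 163 (log2 −1.06, SE 0.38, adjusted p = 0.240), or −0.55 without the 3 libraries. Of 14 erythroid genes 1 was higher and 4 lower (median −0.10, 2 lower without M + E2 1, without M + E2 3 or without the 3 libraries), with TFRC, the transferrin receptor, at 119, 123 and 95.3 CPM against 144 to 393, all below (log2 −1.07, SE 0.31, adjusted p = 0.178), and hemoglobin HBB at 405 ± 172 against 919 ± 429 CPM (−1.17, SE 0.47). TFRC is not particular to red cells, since iron uptake serves all growing cells. Of 15 T and NK cell genes 0 were higher and 1 lower (median −0.12, and 0.14 without the 3 libraries). The lower gene was CD247, the zeta chain of the T cell receptor, with 23.5, 23.9 and 13.7 CPM against 25.8 to 29.3 in Milk, 35.2 to 62.0 in Soy and 33.1 to 47.4 in M + G, so that M + E2 lay near Milk (log2 −0.43 against Milk, −1.24 against Soy, −1.01 against M + G, unadjusted p among the 3 formulas 0.0191). Of 17 macrophage genes 0 were higher and 0 lower by edgeR's unadjusted p (median −0.24, and −0.02 without the 3 libraries), and MARCO, a scavenger receptor, had 5.76, 3.98 and 2.78 CPM against 2.38 to 4.11 (log2 0.43, SE 0.24, adjusted p = 0.406).

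The counts of the next 4 lists are at an unadjusted p below 0.05, where 6.59% of all genes were higher and 8.48% lower. Of 14 chemokines 1 was higher and 0 lower (median 0.02, and 0.06 without the 3 libraries), namely CCL22, a T cell attractant, with 2.95, 2.44 and 2.03 CPM against 0.503 to 2.26 (log2 1.18, SE 0.30, adjusted p = 0.1496). Its difference was 1.84 against Milk, 1.09 against Soy and 0.59 against M + G, with an unadjusted p of 0.0390 among the 3 formulas. Interferon-stimulated genes had 1 of 28 higher and 0 lower (median 0.07, and 0.19 without the 3 libraries), HERC5, a ligase of the antiviral ISG15 system, with 14.3, 13.5 and 11.99 CPM against 5.57 to 11.2, all above (log2 0.59, SE 0.16, adjusted p = 0.170). Immediate early genes, which tissue handling can induce, had 1 of 28 higher and 4 lower (median −0.13, and −0.01 without the 3 libraries), with 0 lower without M + E2 1 and 1 without M + E2 3, and EGR4, the higher one, had 12 to 18 reads against 3 to 12 (log2 1.15, SE 0.38, adjusted p = 0.216). Cell cycle genes had 0 of 33 higher and 1 lower (median −0.05, and −0.01 without the 3 libraries), CCND3, a G1 cyclin, with 177, 218 and 218 CPM against 192 to 396 (log2 −0.62, SE 0.19, adjusted p = 0.188). None of the members of these 4 lists passed the test.

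Epididymal, rete and other epithelial genes varied among the reference libraries, with 0 that passed the test among Milk, Soy and M + G. Of 16 tested, 10 had an unadjusted p below 0.05 among Milk, Soy and M + G, beside 2.12% of all genes. There were 4 such members without M + G 2 and 3 without the collagen-rich libraries. Without Milk 3 there were 11 of 18, where the share of all genes was 11.8%. The median of M + E2 was 0.45 against Milk, 0.27 against Soy and −0.74 against M + G. In the main comparison 1 was higher and 2 lower at an unadjusted p below 0.05, beside 6.59% and 8.48% of all genes (median −0.01, and 0.10 without the 3 libraries, 0 passed). EPCAM, an epithelial adhesion molecule, had log2 differences of 0.76, 0.18 and −3.80 against Milk, Soy and M + G. KRT8, a keratin of simple epithelia that Sertoli cells can also make, had 66.1, 86.4 and 50.9 CPM in M + E2 against 85.0 to 318 (median 174). M + G 3 lay just below M + E2 2, the others above (log2 −1.45, SE 0.38, adjusted p = 0.1496).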

How the data were processed

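The testis RNA of the 12 libraries was sequenced as short single reads. The authors trimmed the reads and mapped them with the CLC Genomics Workbench, in a first pass to curated sequences (Porcine Translational Research Database) and in a second pass, with what remained, to Ensembl's pig build 11.1, and deposited whole-number counts per Ensembl gene with no normalization. Whether these counts hold all reads was not determined. The number of columns left unused for want of a sample was 0.

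The tests ran in edgeR 4.0.16 and limma 3.58.1 under R 4.3.3. Genes were kept by filterByExpr (minimum count 10, over 12 libraries in 4 groups), scaled by TMM, and tested with the quasi-likelihood F test in 1 fit of the 4 groups, which share 1 estimate of the spread. The contrast was M + E2 minus the mean of Milk, Soy and M + G. A call needed a 2-fold change or more and an adjusted p (Benjamini-Hochberg) not above 0.05, the study's thresholds, though the authors used edgeR's exact test. SEs are of the log2 fold change, unadjusted p-values are from the same fit, and SDs over the other 9 libraries mix 3 diets. DESeq2 1.42.0 was an alternative. The fit was tested on simulated counts with 1 spread for all genes and no collagen or ribosomal split between libraries. That test cannot tell how the fit behaves on these libraries. Replicates differed by more than sampling noise (chi-square per degree of freedom of at least 11.0). Counting intervals and the floor of 3 reads that a count of 0 allows cover counting error only.

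The reported fit has no replicate block. No source gives them a shared origin, and deviations of same-numbered M + E2 and other libraries from their group means had r of −0.36 to 0.136. Those of Milk and M + G had r of 0.248, 0.539 and 0.451, and the pair at 0.539 is Milk 2 and M + G 2, both rich in collagen reads. Those of Milk and Soy had r of −0.513 and 0.219, and those of Soy and M + G −0.435 and −0.025. Whether the numbers pair Milk and M + G, or other groups of the reference, was not determined. Gene names came from the table (16446 of 30476 genes, 12216 of the 15164 tested), positions from RefSeq's Sscrofa11.1 by symbol. No sequence was printed, since no sequence table of this organism was used here.

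Genes were named if they were called with groups apart, had the smallest p of 1 of 24 hand-written lists, or were fixed by name (ESR1, ESR2, STAR, CYP11A1, CYP17A1, CYP19A1, INSL3, AMH, FOXL2 and CXCL13, which is not analysed here). A few genes are not reported here, though they count in their lists. Other list members were named as examples after their values were seen. The lists hold 560 tested memberships of 536 genes. The comparison, its members and the lists were chosen with earlier results of these data known. Alternatives were other filters, scaling, tests, reference diets, a replicate block and each library left out. Leaving out Milk 2, Soy 3 and M + G 2 was added after the data were seen.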

Additional observations from a re-analysis of the deposited data

How the results depend on the processing

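The count of calls in M + E2 against the other 3 formulas was 3, and it stayed at 3 with DESeq2's size factors, with at least 10 counts in every library, with the 9 others as 1 group in the quasi-likelihood test, without Milk or without Soy in the reference, and by adjusted p alone. It was 4 without M + G in the reference. With no filter it was 5 (Milk 5, Soy 22, M + G 1, among the 3 formulas 3). With DESeq2 it was 128, 58 higher and 70 lower (Milk 86, Soy 119, M + G 14, among the 3 formulas 18), and with edgeR's exact test 137, 70 higher and 67 lower. When each library was left out in turn, it ranged from 0 (without M + E2 1 or M + E2 2) to 135 (without Milk 3), and the counts ranged from 0 to 1007 against Milk, 0 to 22 against Soy, 0 to 1 against M + G and 0 to 1 among the 3 formulas. Among the named genes, DESeq2 and edgeR's exact test called LINGO1, TVP23A, HPD, STAR, AMH, LIN28B, LGR5, COL9A1, MSMO1, NDUFB11, GSTO1, TFRC and KRT8. The quasi-likelihood test without Milk 3 called the same genes except TFRC and KRT8. LINGO1 and TVP23A were lost without M + E2 1 or 2, and HPD without M + E2 1, 2 or 3 or M + G 1 or 3. The cause was not tested.

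The replicate block, which leaves out the Soy library without a number, gave 3 calls (HPD, LINGO1 and 1 gene without a symbol, with TVP23A lost), and 1 against Soy. Without Milk 2, Soy 3 and M + G 2 there were 3 calls (HPD, LINGO1 and CHAC1) and 8 against Soy. Of 729 values of named genes, 690 kept their direction and side of the threshold, and 521 of 552 list medians kept their sign. Most named genes were not called in the reported fit, so for them the same side means that they stayed uncalled. Of 23 alternatives, the call was lost in 2 for LINGO1, 4 for TVP23A and 5 for HPD. With 3 libraries a group and few reads for genes such as LIN28B, ESR2 and FOXL2, depth limits what can be said of them.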

Other observations

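Of the 15164 genes tested, list members included, 94 were at least 2-fold higher and 61 at least 2-fold lower in M + E2, with all 3 libraries outside the range of the other 9 and an unadjusted p below 0.05. These were picked by that pattern after the values were seen, so the counts carry no test. Of the higher genes 65 had a symbol and 5 stood in a list, and of the lower genes 48 and 10. Of all 15164 genes tested, 12216 had a symbol and 536 stood in a list. Examples of the higher ones, chosen after their values were seen, were STAG3, a meiotic cohesin (28.5 ± 5.46 against 12.2 ± 3.81 CPM, log2 1.24, SE 0.24), SPOCD1, of piRNA-directed DNA methylation (9.02 ± 1.54 against 3.68 ± 1.25 CPM, log2 1.32, SE 0.24), CLGN, a chaperone of the male germ line (15.5 ± 1.88 against 7.33 ± 1.93 CPM, log2 1.10, SE 0.22), and ZNF541, a chromatin factor of meiosis (8.29 ± 0.389 against 3.57 ± 1.53 CPM, log2 1.27, SE 0.31). Their adjusted p lay between 0.129 and 0.143.

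Further examples of the higher genes follow. SLIT1, an axon guidance ligand, had 10.3 ± 1.72 against 4.10 ± 1.41 CPM, DPYSL5 7.89 ± 1.07 against 3.66 ± 1.11 CPM, and the axonal motor gene KIF1A 9.36 ± 1.95 against 4.68 ± 1.27 CPM. Higher genes of greater abundance were SORL1, a sorting receptor (230.0 ± 18.1 against 103 ± 42.8 CPM), and LAMA1, a laminin of the basement membrane (530.3 ± 24.8 against 266 ± 108 CPM).

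Examples of the lower genes were chosen in the same way. PRDX3, the mitochondrial peroxiredoxin, had 539.7 ± 35.99 against 1378 ± 596 CPM (log2 −1.33, SE 0.35), PRDX1, its cytosolic relative, 363 ± 23.5 against 762 ± 342 CPM (log2 −1.05, SE 0.35), and HADHB, of fatty acid oxidation, 312 ± 59.7 against 663 ± 152 CPM (log2 −1.08, SE 0.24). CHAC1, which breaks down glutathione, had 3.91 ± 0.245 against 13.0 ± 3.89 CPM (log2 −1.73, SE 0.32), and LYVE1, of lymphatic vessels and some macrophages, 10.3 ± 2.12 against 21.9 ± 8.83 CPM (log2 −1.07, SE 0.34). None of these passed the adjusted threshold in edgeR's quasi-likelihood test.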
